A study of Rattus norvegicus and Mus musculus with 25 samples.

Results

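Interferon-stimulated genes are genes that a cell transcribes more when interferon reaches its surface receptors. The set described here holds 43 of them, chosen by gene symbol, with earlier results of these data known. Of these, 42 were found among 28905 gene rows in rat (Ddx60 was not analysed there) and 42 among 54083 gene rows in mouse (Oasl was not analysed there). In general, interferon receptors act through Jak kinases on Stat2, which with Irf9 is part of a complex that binds a DNA element called the interferon-stimulated response element, or ISRE. The products include sensors and binders of viral RNA, GTPases that block viral particles, membrane proteins that block entry or release, and the ubiquitin-like protein Isg15. Double-stranded RNA inside a cell, including some synthetic small interfering RNAs (siRNAs), is a known trigger of the same genes in many cell types.

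RNA was measured in 25 libraries from cultured or isolated cardiomyocytes after manipulation of the lipoprotein receptor gene Vldlr or of its ligands Reelin and thrombospondin-1 (gene Thbs1), and the study's title places both ligands upstream of Vldlr in cardiomyocyte proliferation. The 16 rat libraries came from ventricular cardiomyocytes of 1-day-old Sprague-Dawley rats, digested, pre-plated for 90 min to remove faster-attaching cells and cultured. Each of 8 groups had 2 libraries. They were a Vldlr siRNA (si-Vldlr) beside a control siRNA (si-Control_v), a Thbs1 siRNA (si-Thbs1) beside another control siRNA (si-Control_t), Reelin beside PBS, and Vldlr overexpression (Vldlr OE) beside Control. The siRNAs were given at 50 nM for 60 h, Reelin or PBS for 48 h, and the adeno-associated virus AAV9-cTnT-Vldlr for 72 h, with AAV9-CMV-GFP named as its comparator in the treatment text. The cTnT promoter is active in cardiomyocytes and the CMV promoter in most cells. The label of the comparator group says only Control, and its 2 libraries were matched to columns named Blank by elimination, so every Control value rests on that match. The 9 mouse libraries came from day-1 C57BL/6 cardiomyocytes of 3 genotypes, 3 libraries each. Myh6-Cre;Vldlr f/f has both Vldlr copies floxed and a Cre recombinase under the cardiomyocyte promoter Myh6, Myh6-Cre;Vldlr f/+ carries the same Cre with only 1 of its Vldlr copies floxed, and Vldlr f/f has both floxed copies and no Cre. Myh6 drives Cre in cardiomyocytes, so other cells of a preparation keep Vldlr. The labels describe a cell preparation for rat hearts only. Levels are in CPM, a sequencing unit that scales every library to the same total and is not corrected for gene length, so levels are compared between libraries and not between genes.

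The DNA letters that the interferon transcription complex is known to read can be shown for these genes. Promoter windows from 250 bases before to 50 bases after the transcription start were available for 36 of the 43 genes in RefSeq's rat assembly GRCr8. No window was matched for Isg15, Ifit2, Mx2, Usp18, Oas2, Rtp4 and Adar. The windows were searched on both strands for the ISRE core, which is GAAA, any 2 bases and GAAA again. It was present in 23 of the 36 windows (63.9%), and in 1312 of 33469 rat promoter windows (3.92%). The genes with it carried 1 copy in 16 windows and 2 copies in 7. The following matches were chosen because they stand before the start of genes whose levels the results turn on. Each is written 5′ to 3′ on the strand where it reads in that order, with the core in capitals and 8 bases on either side.
Irf7: cgtctcggGAAAATGAAAcctaaact
Ifit3: ggaaactaGAAACTGAAAcagactta
Bst2: ctttccagGAAAATGAAActgaaagg
Oas1a: gggaaatgGAAACTGAAAatcttgtt
Gbp2: aagacaatGAAAGTGAAActaaaaaa
Gbp5: tctaaactGAAATTGAAActacacaa
Rsad2: tgttttctGAAAATGAAAgttgaacc
Parp14: caggaaatGAAAGTGAAAgaagtaag
Lgals3bp: gttttctgGAAATCGAAActagacta
Ifi44: tgggaaatGAAACTGAAActcagtgt
Isg20: atgaaccaGAAACTGAAActaaaacg
Epsti1: gttaaagaGAAATCGAAActcagctg
On GRCr8 the Irf7 core lies at chr1:205800083-205800092 with its last base 60 bases before the start of the gene, the Ifit3 core at chr1:241527282-241527291 with its last base 35 bases before it, and the Gbp2 core at chr2:234005696-234005705 with its last base 22 bases before it. Bst2 (tetherin, which holds budding virus at the cell surface) has overlapping cores that together read GAAAATGAAACTGAAA. The stretches of 250 bases before the start of Irf7, the transcription factor that amplifies interferon production, and of Bst2 are shown whole as the setting of these letters. Both genes are on the minus strand, the sequences read along the gene, and capitals mark the core, which in Irf7 lies on the opposite strand and so reads as its reverse complement.
Irf7, chr1:205800024-205800273: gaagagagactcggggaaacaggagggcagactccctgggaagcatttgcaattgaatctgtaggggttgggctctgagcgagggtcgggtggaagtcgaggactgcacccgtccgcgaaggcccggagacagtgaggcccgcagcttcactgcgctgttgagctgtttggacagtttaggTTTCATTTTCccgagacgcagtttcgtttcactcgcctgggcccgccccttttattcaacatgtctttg
Bst2, chr16:18254968-18255217: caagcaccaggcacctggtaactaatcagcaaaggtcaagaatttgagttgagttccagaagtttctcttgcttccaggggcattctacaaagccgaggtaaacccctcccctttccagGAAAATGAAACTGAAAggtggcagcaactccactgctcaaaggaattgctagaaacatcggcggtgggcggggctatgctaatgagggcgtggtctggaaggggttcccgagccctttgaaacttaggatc
No core was found in the windows of 13 genes: Mx1, Irf1, Irf9, Stat2, Oasl, Herc6, Cmpk2, Parp9, Ifi35, Trim25, Sp100, Uba7 and Helz2. The GAS (gamma-activated sequence) core TTCNNNGAA was present in 7 of the 36 windows (19.4%) and in 2970 of 33469 (8.87%), and 1 of its 7 matches overlapped an ISRE core. A match in a window is a description of letters and shows no binding. Several of the genes are also chromosomal neighbours: the starts of Parp9 and Dtx3l lie 1214 bases apart and those of Rsad2 and Cmpk2 14730 bases apart, each pair on opposite strands.

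Some facts of the libraries stand beside every result. The targeted gene Vldlr had levels of 183 and 171 CPM after si-Vldlr, compared with 253 and 257 after si-Control_v. Thbs1 stood at 745 and 546 CPM in si-Thbs1 against 944 and 892 in si-Control_t. Vldlr was listed at 657 and 889 CPM in Vldlr OE against 577 and 379 in Control, and in mouse at 71.3 to 85.1 CPM in Myh6-Cre;Vldlr f/f, 98.4 to 112 in Myh6-Cre;Vldlr f/+ and 109 to 195 in Vldlr f/f. None of these differences passed the threshold of 0.05 on the adjusted p of limma, a linear model fitted to log2(CPM + 1) of all genes whose p-values are adjusted over all genes tested (limma adjusted p = 0.348, 0.821, 0.958, 0.997 and 0.999). The 10 cardiomyocyte markers summed to 25920 to 47760 CPM in rat and 48610 to 62070 in mouse. The 8 fibroblast markers summed to 28090 to 46460 CPM in rat and 2972 to 5624 in mouse. RNA of these genes was thus abundant in the rat cultures, and the cells it came from were not measured. In bulk RNA, fewer cells of a type and less RNA per cell cannot be told apart. In rat the listed T, NK and B cell markers summed to at most 0.481 CPM in any library, with 4 to 7 of 8 at 0. The labels do not say whether a group's libraries were separate cultures or animals, so p-values measure the spread between libraries, which may be technical.

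The 4 siRNA-transfected libraries of the larger rat table stood apart from the 8 others of that table before any contrast was drawn. In 39 of the 42 genes the lowest transfected library was above the highest of the other 8, which was so for 4.509% of the 13860 genes tested. The 3 exceptions were Epsti1, Ifitm3 and Isg20. The 42 genes together held 4235 to 6789 CPM in the 4 transfected libraries and 977.6 to 1416 CPM in the 8 others. The widest gap was that of Oas2, a synthetase of the oligoadenylates that switch on RNA decay: its level was 20.1 to 39.4 CPM in the transfected libraries and 0 to 0.532 in the others. Irf7 was at 294 to 481 CPM against 6.70 to 19.3, and Oas1a at 38.4 to 92.9 against 0.465 to 2.47. All 42 genes passed the filter on low values (at least 1 CPM in 2 libraries), and 41 would also have passed in the 8 other libraries alone, the exception being Oas2.

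**Figure D1:**
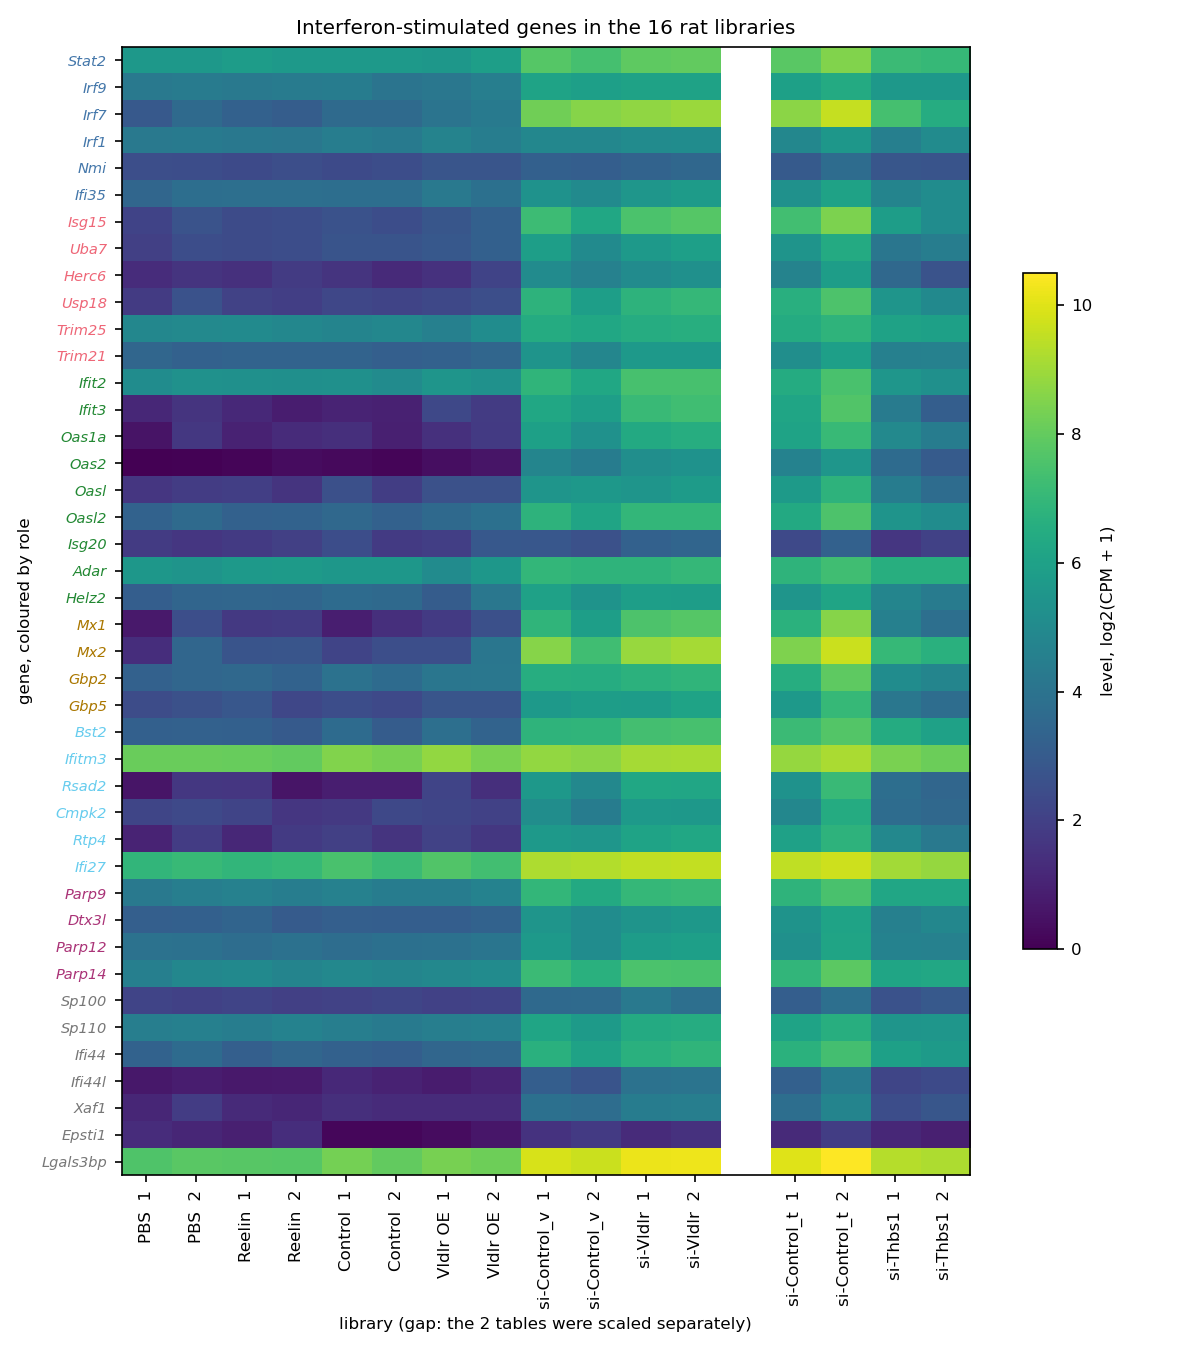
Heat map of the levels of 42 interferon-stimulated genes (rows, names coloured by role) in the 16 rat libraries (columns), as log2(CPM + 1); a gap separates the 2 tables, which were scaled separately. The siRNA-transfected columns are brighter than the PBS, Reelin, Control and Vldlr OE columns in nearly every row, and in the larger table Oas2 spans 0 to 0.532 CPM in those columns and 20.1 to 39.4 CPM in the transfected ones.

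The comparison of si-Control_v with PBS sets these genes in transfected libraries beside untransfected ones. It was the only one of 8 comparisons in which members passed the test: 40 of 42 rose and 0 fell, where 1.72% of all genes tested rose and 1.23% fell (2.94% in all). The members made up 40 of the 238 genes that rose. Oas2 passed the filter only through libraries in which it was high and so had to differ, and without it 39 of 41 rose. Over all 42 members, Oas2 included, the median log2 fold change was 2.29 (4.91-fold, on the scale of CPM + 1), against 0.04 for all genes tested. Single members ranged from 0.44 (Epsti1) to 5.52 (Mx2). All 42 estimates were positive (57.7% of genes tested), 41 had an unadjusted p under 0.05 (15.8%), and all 42 had both si-Control_v libraries above both PBS libraries, which held for 31.7% of genes tested. The groups also differ in hours of treatment (60 h against 48 h) and in being transfected at all. So siRNA, transfection, time and any difference between cultures cannot be told apart.

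Among the transducers and transcription factors all 6 rose. Irf7 was at 294 and 382 CPM in si-Control_v against 6.70 and 11.3 in PBS, a log2 fold change of 5.11 ± 0.20 (SE, limma adjusted p = 1.13e-06). Stat2, which carries the signal from the receptor into the nucleus, was at 212 and 168 CPM against 46.8 and 46.8 in PBS, a log2 fold change of 1.99 ± 0.13 (limma adjusted p = 1.73e-05). Its DNA-binding partner Irf9 rose by 1.69 on the log2 scale. The groups did not overlap for any of the 3. The smallest rises of this group were those of Irf1 (0.58), another interferon-induced transcription factor, and of Nmi (0.67), a protein that binds Stat factors. Ifi35, the partner of Nmi, rose by 1.58.

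The Isg15 system rose as a whole, with 6 of 6 members called. Isg15 itself was at 147 and 76.1 CPM in si-Control_v and at 3.34 and 5.47 CPM in PBS. That is a log2 fold change of 4.34 ± 0.28 (limma adjusted p = 1.73e-05). Its activating enzyme Uba7 rose by 3.23 and its ligase Herc6 by 3.38 on the log2 scale. Usp18, which removes Isg15 from proteins and dampens the interferon receptor, was at 109 and 57.6 CPM against 2.57 and 5.26, a log2 fold change of 4.09 ± 0.30 (limma adjusted p = 2.91e-05). Both for Isg15 and for Usp18 the second si-Control_v library was the lower of the pair, yet far above both PBS libraries. The ubiquitin ligases Trim25 and Trim21 rose less, by 1.47 and 1.76.

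Of the 9 measured genes that bind, edit or degrade RNA, 8 rose, a count that includes Oas2. Ifit3, which binds viral RNA together with its relatives, was at 74.7 and 57.5 CPM against 1.26 and 1.95 in PBS, a log2 fold change of 4.69 ± 0.21 (limma adjusted p = 1.48e-06). Oas2 was listed at 26.3 and 20.1 CPM against 0 and 0.049, a difference of 4.55 on the log2(CPM + 1) scale, given as a description because of the way it passed the filter. Oas1a rose by 4.51, Oasl by 3.76 and Oasl2 by 3.01. Oas genes lie in clusters of close copies, so the split of reads among them is uncertain. Adar, the enzyme that edits double-stranded RNA, rose by 1.39 from a level of 46.6 and 41.7 CPM. Ifit2 rose by 1.35 and the helicase Helz2 by 2.41. The exonuclease Isg20 did not pass, at 6.18 and 5.13 CPM against 2.54 and 2.15 (limma adjusted p = 0.135).

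The 4 GTPases had the highest median of the role groups, 4.01 on the log2 scale. Gbp2, a guanylate-binding protein that attacks pathogen membranes, was at 93.2 and 89.1 CPM in si-Control_v against 8.62 and 10.0 in PBS, a log2 fold change of 3.16 ± 0.13 (limma adjusted p = 1.13e-06). Mx2 was at 383 and 155 CPM against 1.58 and 9.99, with a log2 fold change of 5.52 ± 0.67 (limma adjusted p = 0.000993). On the log2(CPM + 1) scale Mx2 had both the largest fold and the widest error of the 42 genes, and within each group its libraries were far apart. Gbp5 rose by 3.25. Mx1, a close paralog of Mx2, rose by 4.77, and reads may be shared between the pair.

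Each of the 6 membrane, lipid and nucleotide effectors rose. Bst2 was at 112 and 116 CPM against 8.28 and 8.72 in PBS, a log2 fold change of 3.60 ± 0.20 (limma adjusted p = 6.82e-06). Rsad2 (viperin, which makes a chain-terminating nucleotide) rose by 4.11 and its chromosomal neighbour Cmpk2, a mitochondrial nucleotide kinase, by 2.54. Rtp4 rose by 4.12 and Ifi27 by 2.26. Ifitm3, an inhibitor of viral membrane fusion that was already at 277 and 270 CPM in PBS, rose by 0.63, to 446 and 402. All 4 genes of the Parp family and Dtx3l group rose within a narrow band, with Parp9 at 2.28, Parp14 at 2.22, Dtx3l at 2.11 and Parp12 at 1.45. Among nuclear body proteins and other members, Ifi44 rose by 2.88, Xaf1 by 2.31, Ifi44l by 2.18, Lgals3bp by 2.06, Sp100 by 1.53 and Sp110 by 1.41. Epsti1 was at 1.91 and 2.45 CPM against 1.504 and 1.19 and did not pass (limma adjusted p = 0.328).

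Folds with and without an exact match to the ISRE core in the window were alike in their medians. Genes without a matched window, Mx2 and Oas2 among them, are in neither group. Other spacings of the element and copies outside the window were not searched for. The 22 measured genes with an ISRE core in their window had a median log2 fold change of 2.24 (0.44 to 5.11), and the 13 without one had a median of 2.28 (0.58 to 4.77). Isg20 and Epsti1, the 2 genes that did not pass, both carry a core. Without any one of the 4 libraries, 37 or 38 of the 42 genes were called, in fits that called 180 to 614 genes in all against 408 with every library. The most, 614, came without si-Control_v replicate 1, and without PBS replicates 1 and 2 the totals were 180 and 189. In those fits Nmi and Ifitm3 lost the call without each of the 4 libraries in turn, and Irf1 lost it except without si-Control_v replicate 1.

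**Figure D2:**
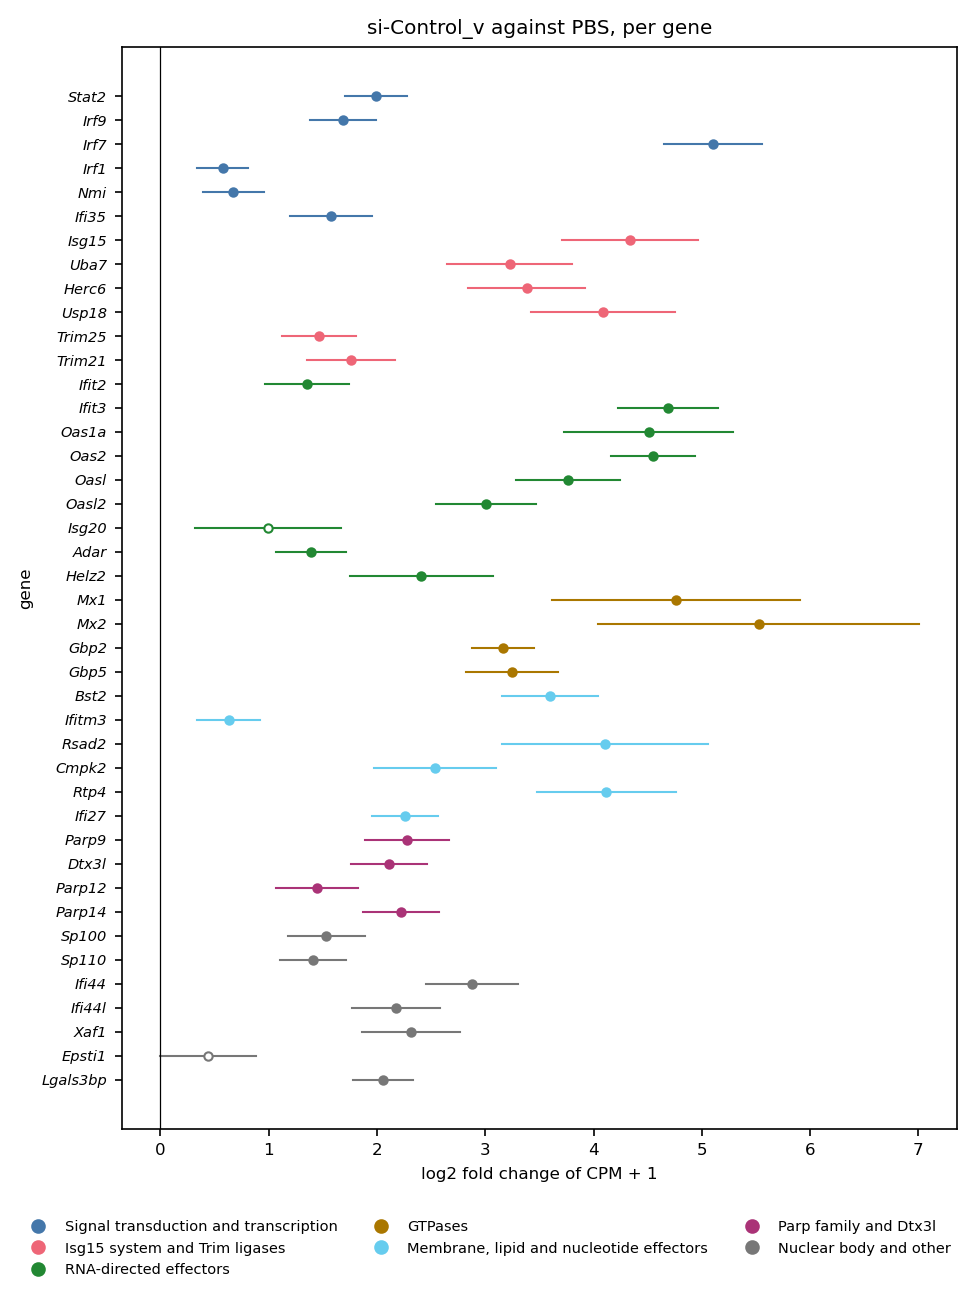
Log2 fold change of CPM + 1 between si-Control_v and PBS for 42 interferon-stimulated genes, coloured by role; points are limma estimates, lines 95% confidence intervals, and filled points passed the adjusted threshold. The 40 filled points lie between 0.58 (Irf1) and 5.52 (Mx2), and Isg20 and Epsti1 are open.

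The other genes of the pathway divided by their place in it. None of the 8 interferon genes listed reached the filter in any rat library: Ifnb1, the gene of interferon beta, was at most 0.0818 CPM in the larger rat table and 0.138 in the smaller. Of the 6 interferon receptor subunits 0 passed, with Ifnar1 at a log2 fold change of -0.01 and Ifnar2 at 0.13. Of the 4 Jak and Stat genes measured 0 passed (largest Jak2, 0.33, limma adjusted p = 0.26), and likewise 0 of 8 other interferon regulatory factor genes. Among 8 negative regulators 1 rose, the DNA exonuclease Trex1 (0.54, limma adjusted p = 0.037).

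Sensors of foreign nucleic acid and the antigen display machinery are both partly interferon-induced themselves. Of 14 sensing genes 6 rose: Dhx58 by 3.23, Ddx58 (RIG-I) by 2.33, Ifih1 (MDA5) by 2.13, Eif2ak2 (the RNA-activated kinase PKR) by 1.85, Tlr7 by 1.01, and Zbp1, which was listed at 0 in both PBS libraries. Zbp1 and Aim2 passed the filter only through transfected libraries, and without them 5 of 12 rose. The adaptors Mavs (0.31) and Myd88 (0.03) did not pass. Of 10 genes of class I antigen presentation 8 rose, with B2m by 1.74 from 496 to 1663 CPM on average, Tap1 by 1.44, Tapbp by 1.16, Nlrc5 by 2.09, Psmb8 by 1.47, Psmb9 by 1.76, Psme1 by 0.78 and Psme2 by 0.73. Of 47 cell type markers tested 6 were called (12.8%, against 2.94% of all genes). Of 10 cardiomyocyte and 8 fibroblast markers 1 each rose, and 2 of 5 epicardial markers fell. The macrophage markers summed to 561 and 979 CPM in si-Control_v, 516 and 614 in si-Vldlr, and 928 and 992 in PBS, with 0 of 8 tested markers called. Summed smooth muscle and pericyte markers were lower in the transfected libraries (2104 to 2661 CPM) than in the 8 others (2930 to 4328), and 2 of 7 fell in si-Control_v against PBS. Their part in the result was not tested.

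**Figure D3:**
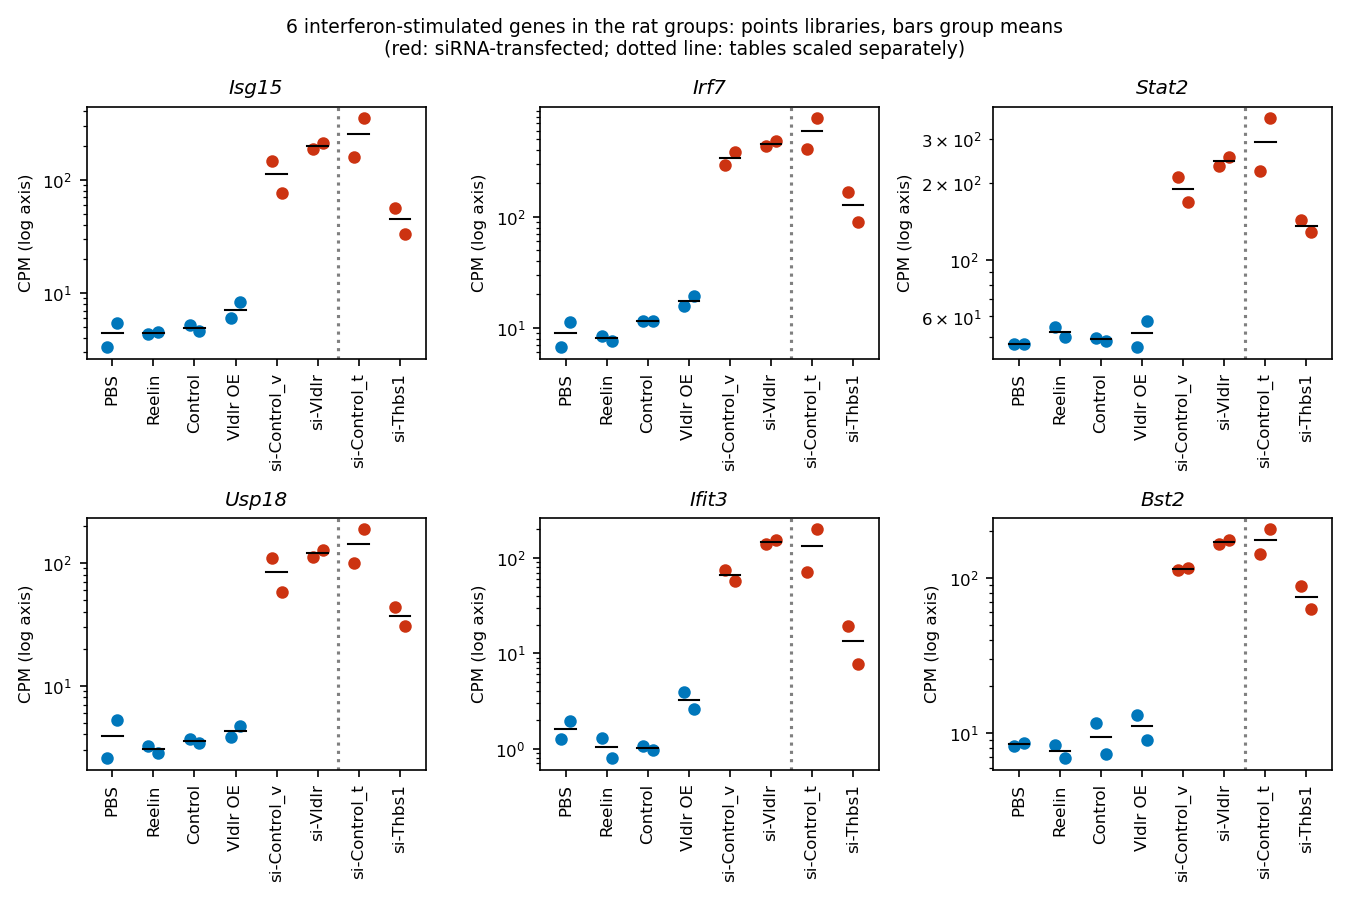
Levels in CPM (log axis) of Isg15, Irf7, Stat2, Usp18, Ifit3 and Bst2 in the 8 rat groups; points are libraries, bars group means, red marks siRNA-transfected groups, and the dotted line separates tables scaled separately. For each gene all red points of the larger table lie above all blue points.

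Knockdown of Vldlr was compared with its own siRNA control, which is also transfected. With si-Vldlr 0 of 42 genes passed (4 of 13860 genes did, 0.0289%), but 41 of 42 estimates were positive, where 46.0% of all genes tested had a positive estimate. In 34 genes both si-Vldlr libraries were above both si-Control_v libraries (21.1% of genes tested), and 22 had an unadjusted p under 0.05 (11.8% of genes tested). The median log2 fold change was 0.45, against -0.02 over all genes. The smallest adjusted p was that of Ifi44l, at 14.7 and 15.5 CPM against 7.92 and 5.58, a log2 fold change of 1.07 ± 0.18 (limma adjusted p = 0.0936). Ifit3 was at 139 and 153 CPM against 74.7 and 57.5 (1.14 ± 0.21, limma adjusted p = 0.102), and Ifit2, its neighbour in function, at 171 and 172 against 117 and 75.4 (0.86 ± 0.17, limma adjusted p = 0.148). In these 3 genes the groups did not overlap.

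For Isg15 the levels were 186 and 210 CPM in si-Vldlr against 147 and 76.1 in si-Control_v, a log2 fold change of 0.89 ± 0.28 (limma adjusted p = 0.327). Mx1 had the largest estimate, 1.28 ± 0.52, at 190 and 211 CPM against 116 and 57.9 (limma adjusted p = 0.394). Bst2 was at 164 and 175 CPM against 112 and 116 (0.57 ± 0.20, limma adjusted p = 0.348). Usp18 (0.58 ± 0.30), Irf7 (0.45 ± 0.20) and Stat2 (0.37 ± 0.13) had limma adjusted p of 0.478, 0.428 and 0.349. Role medians ran from 0.31 for transducers and factors to 0.66 for GTPases. Epsti1 was the single gene with a negative estimate, -0.27, and the single gene with both si-Vldlr libraries lower (27.4% of genes tested). Of the pathway's other genes 0 were called, with positive estimates for 10 of 10 class I presentation genes (median 0.49) and 10 of 14 sensing genes (median 0.25). Cardiomyocyte markers were lower beside them, with 1 of 10 estimates positive and sums of 30640 and 31770 CPM in si-Vldlr against 34900 and 35490 in si-Control_v. Macrophage markers had 1 of 8 positive estimates, and their sums overlapped. None of 47 markers was called, and their part in the result was not tested.

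The 2 si-Control_v libraries were themselves unequal in this set. Replicate 2 was below replicate 1 in 34 of 42 genes, by a median of 0.37 on the log2 scale, and was the lowest of the 4 transfected libraries in 34 genes. Over all genes tested 47.16% were higher in replicate 2. The si-Vldlr libraries lay closer together (median SD over the members of 0.09 log2 units against 0.26 in si-Control_v). Without si-Control_v replicate 1, 8 members were called, all higher in si-Vldlr: Ifi44l, Ifit2, Ifit3, Isg15, Parp12, Parp14, Sp110 and Trim21. That fit leaves a lone control library, assumed to vary as the other groups do, and it called 1.21% of all genes. The median of the set was 0.66 without replicate 1 and 0.29 without replicate 2. The contrast of si-Control_v with PBS uses the same si-Control_v libraries, so the pair of contrasts is not independent.

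Knockdown of Thbs1 stood on the other side. Of 42 genes 0 passed (6 of 13416 genes did, 0.0447%), yet all 42 estimates were negative, where 41.6% of all genes tested had a negative estimate. In 41 genes both si-Thbs1 libraries were below both si-Control_t libraries (10.8% of genes tested), Irf1 being the exception, and 39 had an unadjusted p under 0.05 (5.52% of genes tested). The median log2 fold change was -1.21, against 0.03 over all genes. The range ran from -3.44 (Mx1) to -0.41 (Irf1), and the smallest adjusted p of any member was 0.471.

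Mx1 was at 22.9 and 13.2 CPM in si-Thbs1 against 103 and 384 in si-Control_t, a log2 fold change of -3.44 ± 0.62 (limma adjusted p = 0.471). Ifit3 was at 19.4 and 7.76 CPM against 70.3 and 199 (-3.16 ± 0.59), and Isg15 at 56.6 and 33.5 against 158 and 347 (-2.40 ± 0.42). Irf7 was at 167 and 89.3 CPM against 408 and 771 (-2.19 ± 0.40). Usp18 was at 43.6 and 30.5 CPM against 98.8 and 186 (-1.87 ± 0.33). Bst2 was at 87.9 and 63.3 CPM against 143 and 204 (-1.18 ± 0.24), and Stat2 at 143 and 128 against 223 and 360 (-1.06 ± 0.24). In none of these genes did the groups overlap, and limma's adjusted p was 0.471 for each. By role the medians were -2.34 for GTPases, -1.75 for the Isg15 system, -1.71 for RNA-directed genes and -0.67 for transducers and factors. The class I presentation genes had 0 of 10 positive estimates (median -0.90) and the sensing genes 1 of 13 (median -0.64), with 0 called in either list.

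The si-Control_t libraries were themselves far apart. The second si-Control_t library was the highest of the 4 in all 42 genes. It was above the first by a median factor of 1.86, with Mx1 at 3.72 times and Ifi27 at 1.14 times the first, while 62.71% of all genes tested were higher in it. The median SD over the members was 0.63 log2 units in si-Control_t, against 0.13 for all genes in that group and 0.22 for the members in si-Thbs1. Leaving out 1 of the 4 libraries leaves an arm with a lone library, whose spread is taken from the 2 libraries of the other group. Without si-Control_t replicate 1, 33 members were called lower (2.02% of all genes were called), with a median of -1.57. Without si-Control_t replicate 2, 12 were called lower (0.324% of all genes), with a median of -0.90: Mx1, Mx2, Isg15, Ifit3, Gbp2, Gbp5, Rsad2, Irf7, Oasl, Usp18, Oas1a and Rtp4. Without si-Thbs1 replicate 1, Irf7 and Ifit3 were called (0.218% of all genes), and without si-Thbs1 replicate 2 no member was (0.113% of all genes). The gap between the lower si-Control_t and the higher si-Thbs1 library ran from 4.51 times in Mx1 down to 1.06 times in Epsti1, with Irf1 overlapping. Cardiomyocyte markers summed to 36800 and 26970 CPM in si-Control_t and 47760 and 25920 in si-Thbs1, and macrophage markers to 653 and 604 against 542 and 613. Epicardial markers summed to 82.5 and 83.1 CPM in si-Thbs1 against 105 and 99.6 in si-Control_t, with 0 of 5 estimates positive. Fibroblast markers had 0 of 8 positive estimates, with overlapping sums of 28090 and 34570 against 33020 and 38390 CPM. No marker was called, and their part in the result was not tested.

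The si-Thbs1 libraries had higher summed levels than the untransfected rat libraries, which had other hours of treatment. The members summed to 3072 and 2646 CPM in si-Thbs1, against 5326 and 9085 in si-Control_t. The sum was at most 1416 CPM in the 8 rat libraries without siRNA. In 36 of 42 genes both si-Thbs1 libraries were above all 8 of these, the exceptions being Ifit2, Irf1, Ifitm3, Epsti1, Isg20 and Nmi. The same held for 19.3% of the 13332 genes that passed the filter in both tables. The tables were scaled separately and this comparison across them has no test.

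**Figure D4:**
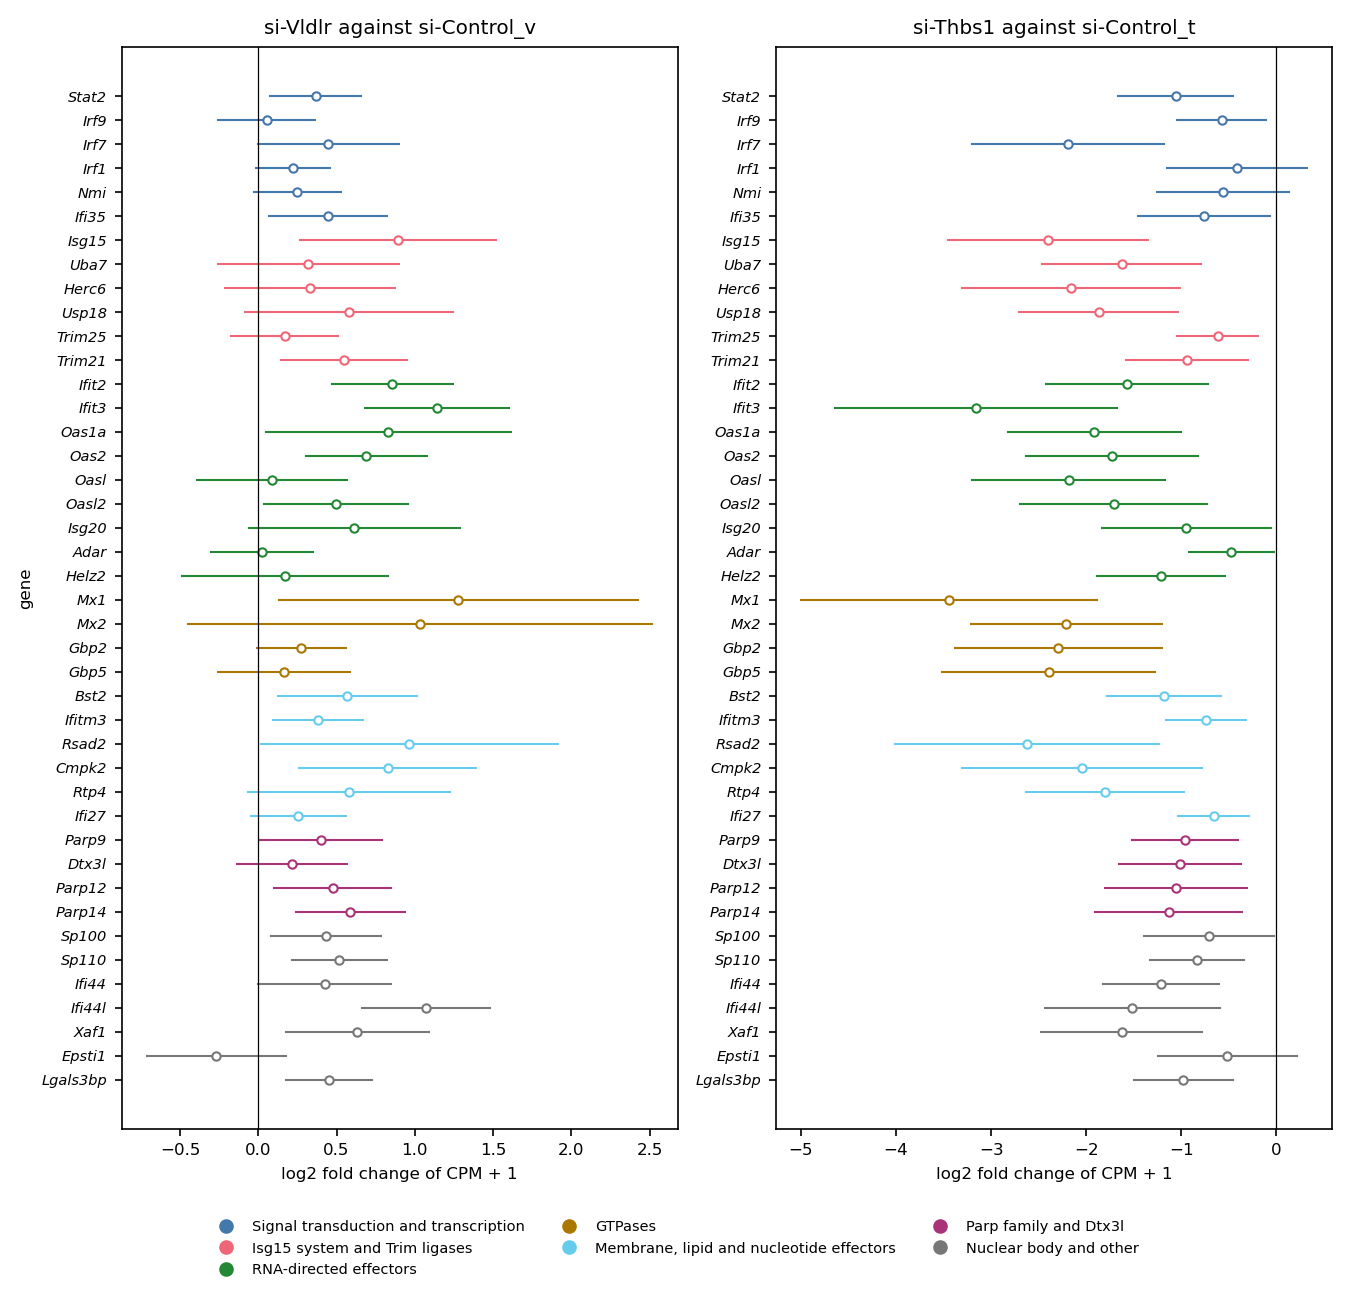
Log2 fold change of CPM + 1 for 42 interferon-stimulated genes in si-Vldlr against si-Control_v (left) and si-Thbs1 against si-Control_t (right), coloured by role; points are limma estimates and lines 95% confidence intervals, on different axis ranges. All points are open (0 passed the adjusted threshold); 41 of 42 are positive on the left and 42 of 42 negative on the right.

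Reelin against PBS gave estimates around 0. Of the 42 genes 0 passed by limma (2 of 13860 genes did, 0.0144%), and 0 had an unadjusted p under 0.05 (1.36% of genes tested). Estimates were split evenly, 21 positive (58.5% of genes tested) and 21 negative, with a median of 0.00 against 0.02 over all genes and a range of -0.35 to 0.32. Both Reelin libraries were higher in 4 genes (19.7% of genes tested) and lower in 3 (13.0%). Isg15 was at 4.32 and 4.53 CPM with Reelin against 3.34 and 5.47 with PBS, a log2 fold change of 0.03 with a 95% interval of -0.59 to 0.66. Irf7 was at 8.51 and 7.64 CPM against 6.70 and 11.3 (interval -0.56 to 0.35). Ifit3, with the smallest p, was at 1.29 and 0.795 CPM against 1.26 and 1.95 (limma adjusted p = 1), and the groups overlapped. Among the other genes nearest to a difference, Xaf1 had an estimate of -0.29, Cmpk2 of -0.35, Mx2 of 0.32 and Ifi35 of 0.22. The PBS libraries are also those of the si-Control_v contrast.

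Overexpression of Vldlr against Control gave estimates above 0 in 37 of 42 genes (42.7% of genes tested), of which 0 passed (1 of 13860 genes did, 0.00722%). The median was 0.21, against -0.03 over all genes, and it was 0.11 without the second Control library. In 21 genes the groups did not overlap and Vldlr OE was higher (9.54% of genes tested), and in 1 it was lower (15.5%). Unadjusted p was under 0.05 in 4 (4.52% of genes tested). The largest estimate was that of Ifit3, at 3.89 and 2.58 CPM against 1.07 and 0.973, a log2 fold change of 1.05 ± 0.21 (limma adjusted p = 0.958). Irf7 was at 15.7 and 19.3 CPM against 11.5 and 11.5 (0.56 ± 0.20), Gbp2 at 16.5 and 16.8 against 14.5 and 11.6 (0.34 ± 0.13), and Nmi at 5.83 and 5.85 against 4.11 and 4.56 (0.36 ± 0.13). Isg15 was at 5.99 and 8.26 CPM against 5.22 and 4.64 (0.44 ± 0.28). The groups did not overlap in these 5 genes, and all 4 libraries were below the 4 siRNA-transfected ones of the table. Mx2, at 4.70 and 16.4 CPM against 3.42 and 4.68, had an estimate of 0.99 ± 0.67. Without Vldlr OE replicate 2, Ifit3 was called higher and Adar lower, in a fit that called 1.86% of all genes.

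In mouse cells no member passed the test in any genotype comparison. The members summed to 450.8 to 620.5 CPM over the 9 libraries, and Ifi44l was listed at 0 in all 9, which left 41 genes tested. Between Myh6-Cre;Vldlr f/f and Vldlr f/f 0 of 41 passed (0 of 14922 genes did, 0%), and 1 had an unadjusted p under 0.05 (3.04% of genes tested). That was Trim25, the ubiquitin ligase that activates RIG-I, at 43.5, 9.70 and 18.6 CPM against 66.5, 46.7 and 69.5, a log2 fold change of -1.54 ± 0.43 (limma adjusted p = 0.997). Its groups did not overlap, although the first Cre library was close to the lowest Vldlr f/f library. The median over the set was -0.04 (all genes -0.11), with 19 of 41 positive (33.9% of genes tested). Groups did not overlap in 1 gene that was higher (1.72% of genes tested) and 3 that were lower (6.81%), which were Nmi and Trim25, Stat2 and Helz2.

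Stat2 was at 9.91, 9.53 and 8.74 CPM in Myh6-Cre;Vldlr f/f against 12.8, 14.3 and 15.7 in Vldlr f/f (-0.55 ± 0.30, limma adjusted p = 0.997). Nmi was at 12.1, 11.5 and 11.9 CPM against 9.01, 7.40 and 7.92 (0.50 ± 0.23, limma adjusted p = 0.997). Ifit3 was at 7.75, 8.51 and 4.62 CPM against 3.32, 4.29 and 4.89 (0.60 ± 0.27, limma adjusted p = 0.997). The groups overlapped for Ifit3 and not for Stat2 or Nmi. Isg15 (9.10, 4.29 and 3.06 CPM against 4.41, 3.09 and 6.18), Irf7 (9.88, 6.47 and 6.68 against 7.12, 8.17 and 6.69) and Bst2 (32.9, 19.9 and 25.9 against 22.2, 19.8 and 25.4) overlapped between the groups. The 95% interval for Irf7 was -0.52 to 0.60 and that for Isg15 -0.65 to 0.95.

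The heterozygous Cre genotype, set against the same Vldlr f/f libraries, had 0 of 41 genes called (0 of 14922, 0%) and 0 with an unadjusted p under 0.05 (2.43% of genes tested). The median was 0.01 (all genes -0.06), with 21 of 41 positive (41.7% of genes tested). Bst2, at 28.2, 29.4 and 29.2 CPM against 22.2, 19.8 and 25.4, was 1 of 2 genes higher with no overlap (2.20% of genes tested; 0.36 ± 0.23, limma adjusted p = 0.999), and Ifit3 was the other. Estimates were 0.35 for Nmi, 0.34 for Irf9, -0.58 for Rsad2 and -0.43 for Dtx3l, all with overlapping groups. Between the Cre genotypes 0 of 41 genes passed (0 of 14922, 0%), 14 estimates were positive (39.8% of genes tested) with a median of -0.05, and 1 gene had an unadjusted p under 0.05 (0.925%). Trim25 again had the smallest p (-1.16 ± 0.43, limma adjusted p = 1), with 41.9, 45.7 and 51.2 CPM in Myh6-Cre;Vldlr f/+, and its groups overlapped. Herc6 had an estimate of -0.57 and Rsad2 of 0.70. These values between the Cre genotypes come from a fit that did not pair libraries by replicate number. The 10 mouse interferon genes listed never exceeded 0.0757 CPM.

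**Figure D5:**
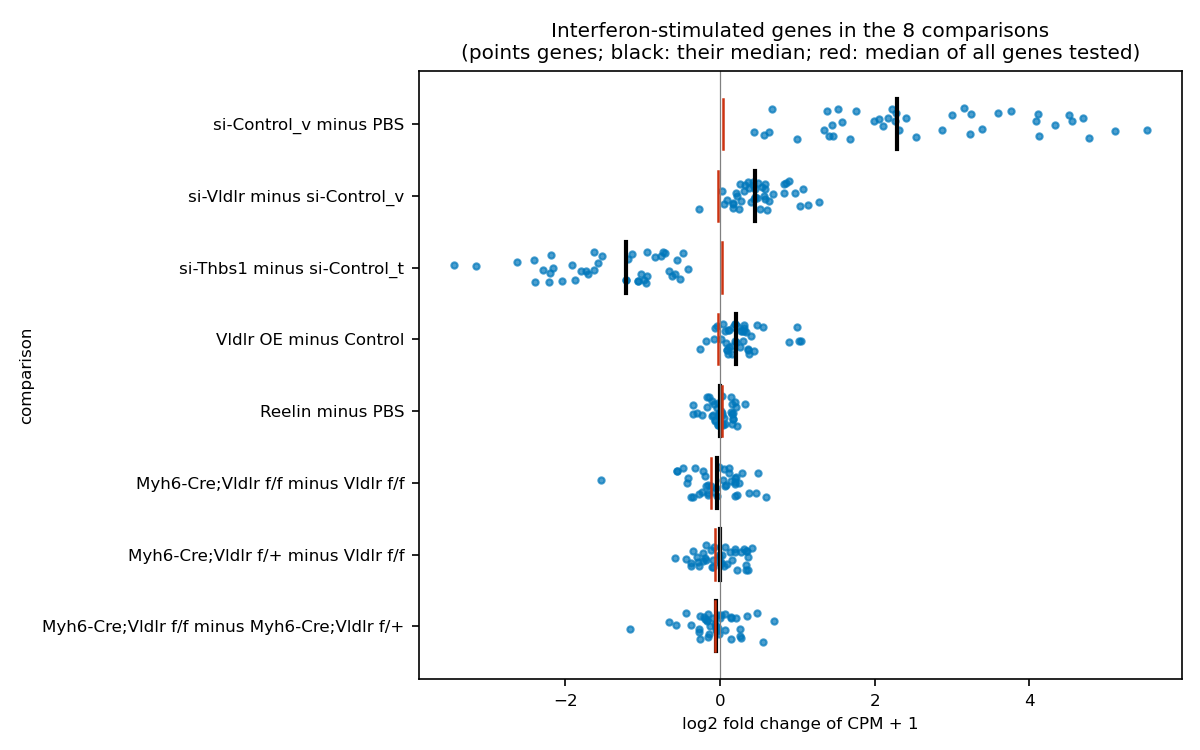
Log2 fold change of CPM + 1 of each interferon-stimulated gene (points, 42 in rat and 41 in mouse) in the 8 comparisons, with the median of these genes (black) and of all genes tested (red). The members' median is 2.29 for si-Control_v against PBS, 0.45 for si-Vldlr, -1.21 for si-Thbs1, 0.21 for Vldlr OE and between -0.05 and 0.01 in the other 4.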

How the data were processed

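RNA from 16 rat and 9 mouse libraries had been extracted with TRIzol and sequenced on Illumina libraries, per the labels' protocols. The authors deposited 3 tables in CPM, each scaled on its own. Tools named in the submitters' processing notes are edgeR 3.20.9, HISAT2 2.1.0 and StringTie 1.3.4. Those notes name rn6 and mm10 as builds. Nonzero values are whole multiples of a step, within 0.05 steps, for 100% of them in mouse and 99.12 to 99.25% in rat. There were 66088372 to 97773385 steps per library. A step is not known to be a read, so no count test and no counting interval is given. Columns were matched by name for 23 libraries and by elimination for 2. From every table, 4 rows with duplicated date-like names were left out.

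Differences were tested on log2(CPM + 1), which understates the change of low genes, with limma 3.58.1 (R 4.3.3) and an intensity trend. Genes needed 1 CPM in at least 2 (rat) or 3 (mouse) libraries. All groups of a table shared 1 fit, and Benjamini-Hochberg adjustment ran over all genes tested, with calls at 0.05. The fit was also run on simulated data with independent noise of the same spread for every gene. That setting is simpler than these data, so the run gives no support to the p-values of the members. Genes named are 6 fixed ones (Isg15, Irf7, Stat2, Usp18, Ifit3, Bst2; in mouse only genes with a mean of 5 CPM or more), the 3 members with the smallest p and the 2 with the largest fold at 5 CPM or more per comparison, and every called member, the last mostly by fold alone; other members named were chosen after their values were seen. The members and lists were chosen with earlier results of these data known. Promoter sequences are from RefSeq on GRCr8.

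Replicate numbers were taken as a pairing in 1 comparison, between the 2 Cre genotypes, where same-numbered libraries deviated together (correlations of 0.333 to 0.459 over 3 pairs). The values given for that comparison are from the unpaired fit, and the fit with a replicate block called 0 members. Alternatives changed the pseudocount, filter, scaling, fit, replicate block and single libraries. No library was a copy of another library of its own group, and copies between groups were not looked for.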

Additional observations from a re-analysis of the deposited data

How the results depend on the processing

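The 40 calls of si-Control_v against PBS ranged from 38 to 42 over 10 alternatives. Of these, 2 (Control as comparator, and both transfected groups against the other 4) were chosen after seeing the data. The share of all genes called can differ between such fits and is not given here for the 10. The range of counts therefore does not measure how stable the set is. The median log2 fold change of all 42 members, 2.29, was 2.60 with a pseudocount of 0.25 and 2.05 with a pseudocount of 5. It was 2.48 for both transfected groups against the other 4. Leaving out single libraries gave medians of 2.14 to 2.51. For si-Vldlr a pseudocount of 5 gave 2 calls, Ifit3 and Ifi44l (0.0649% of all genes), and single libraries left out gave 0 to 8 calls and medians of 0.29 to 0.66. For Vldlr OE single libraries gave 0 to 2 calls and medians of 0.11 to 0.30, and for si-Thbs1 0 to 33. No called value among the results recomputed changed sign. Medians near 0 took both signs: with single libraries left out they ran from -0.07 to 0.09 for Reelin, -0.11 to 0.07 (-0.14 to 0.08 with other settings) for homozygous and -0.10 to 0.10 for heterozygous Cre mice compared with Vldlr f/f, and -0.14 to 0.05 between the Cre genotypes. The cause was not tested. The replicate block gave 1 call for si-Thbs1 (Uba7, -1.63, limma adjusted p = 0.0465; 0.321% of all genes were called), 38 for si-Control_v against PBS, and 0 in the other comparisons that have numbers. Same-numbered rat libraries form only 2 pairs (correlations of 0.156 for si-Vldlr, -0.063 for Reelin, -0.026 for si-Control_v against PBS and 0.409 for si-Thbs1), too few to take the numbers as a pairing. The mouse comparisons with Vldlr f/f had correlations from -0.545 to 0.055. No paired analysis was possible for Vldlr OE because its Control columns carry no replicate numbers of the labels. With 2 libraries a group, a change below the adjusted threshold is not shown to be absent.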

Other observations

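A few members differed between rat groups that received no siRNA and are not compared in the design; they were chosen after their values were seen and were not tested. Epsti1 was at 0.152 and 0.128 CPM in Control and 0.286 and 0.544 in Vldlr OE, against 1.504 and 1.19 in PBS and 0.921 and 1.62 in Reelin. Lgals3bp, a secreted galectin-binding protein, was at 311 and 253 CPM in Control and 323 and 286 in Vldlr OE, against 195 and 221 in PBS and 220 and 209 in Reelin. Ifitm3 was at 362 and 321 CPM in Control and 446 and 330 in Vldlr OE, against 277 and 270 in PBS and 265 and 253 in Reelin. Hours of treatment (48 h in PBS and Reelin, 72 h in Control and Vldlr OE) and the agents given differ among these groups. They cannot be told apart, and the label of Control does not say whether it received virus.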
